A study of Mus musculus with 7 samples.

Results

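Genes that supply histones during DNA replication were followed in the RNA of mouse sperm. They were taken as the probe sets whose only gene symbol in the platform annotation names a clustered histone H1, H2A, H2B, H3 or H4 gene, without the testis genes H2bc1, H2ac1 and H1f6. This gave 25 probe sets for 24 genes, of 23493 probe sets for 22154 genes with exactly 1 symbol and of 33604 probe sets in all. H1 had 5 probe sets, H2A had 6 for 5 genes, H2B had 7 and H4 had 7. H3 had 0, because every H3 probe set was shared by several genes. The genes lie on chromosome 13 (18 genes), chromosome 3 (5 genes) and chromosome 6, which holds H1f10 alone.

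The study compared sperm of C57BL/6 mice with sperm of a KDM1A transgenic line on 7 expression arrays, and KDM1A is a histone lysine demethylase. Its construct was injected into C57BL/6 zygotes, and heterozygous males bred to C57BL/6 females carried it down to generation 3. TG3 males had the transgene and nonTG3 males were their littermates without it, with 3 arrays each and RNA of 4 males on every array. The C57BL/6 group was 1 array with RNA of 5 males, so its values have no replicates. The labels name neither the animals' ages nor the promoter of the transgene. They do not say whether pools shared males, so p-values reflect only the spread between these pools, which may be technical.

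Replication-dependent histone genes are transcribed mainly in S phase, when new DNA has to be packaged into nucleosomes. Core histones H2A, H2B, H3 and H4 form the nucleosome and H1 binds the linker DNA. Their mRNAs end in a stem-loop in place of a poly(A) tail, and the stem-loop binding protein Slbp attends their processing and translation. In the male germ line DNA is replicated in spermatogonia and just before meiosis. Testis histone variants, transition proteins and protamines then replace most histones in spermatids, and sperm keep some nucleosomes. H1f10 is a replacement linker histone whose RNA has a poly(A) tail, and it entered by its name alone. The labels do not say whether the amplification kit reads RNA with and without a poly(A) tail equally.

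The promoters show what the genes share besides their products. RefSeq (build GRCm38.p6) held a promoter for 22 of the 24 genes, and H2bc21 and H4c14 had none. In the 250 bases before the start, 4 motifs were searched on both strands. They were CCAAT, the TATA box letters TATAAA, the octamer ATTTGCAT known from H2B promoters, and AAACACA, known from H1 promoters. None of these motifs contains another. CCAAT was found in 16 of the 22 promoters (72.7%), against 33.8% of all 32851 promoters of the table. It was in 5 of 5 H2A, 6 of 6 H2B and 4 of 5 H1 promoters, but in 1 of 6 H4 promoters. ATTTGCAT was in 4 of 6 H2B and 2 of 5 H2A promoters and in 1.6% of all promoters. AAACACA was in 3 of 5 H1 promoters and in 6.25% of all, and TATAAA in 11 of the 22 and in 12.4% of all. Shown are the 150 bases before the start of H1f2, H2bc3, H2bc22 and H4c12, to show how the families differ and to set H2bc3 beside H2bc22, the H2B gene with the largest difference between groups. Capitals mark the motifs. The windows are chr13:23738657-23738806 on the plus strand for H1f2, chr13:23746584-23746733 on the plus strand for H2bc3, chr13:21787338-21787487 on the plus strand for H2bc22 and chr13:21750554-21750703 on the minus strand for H4c12.
H1f2: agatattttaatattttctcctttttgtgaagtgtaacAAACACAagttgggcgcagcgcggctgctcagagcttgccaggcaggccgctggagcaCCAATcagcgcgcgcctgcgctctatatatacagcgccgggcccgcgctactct
H2bc3: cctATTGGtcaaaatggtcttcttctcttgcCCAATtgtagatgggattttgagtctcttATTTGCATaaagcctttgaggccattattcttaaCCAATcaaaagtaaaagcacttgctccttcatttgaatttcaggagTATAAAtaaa
H2bc22: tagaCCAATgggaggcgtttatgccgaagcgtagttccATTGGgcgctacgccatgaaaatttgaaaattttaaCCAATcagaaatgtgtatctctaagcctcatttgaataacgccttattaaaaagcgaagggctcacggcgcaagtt
H4c12: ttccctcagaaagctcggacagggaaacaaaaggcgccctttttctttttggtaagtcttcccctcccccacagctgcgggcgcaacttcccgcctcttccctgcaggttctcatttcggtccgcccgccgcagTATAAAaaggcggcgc
In these windows H2bc3 has the octamer, the CCAAT motif and the TATA letters, and H2bc22 has the CCAAT motif alone. In the 250 bases searched H2bc22 has the TATA letters too, outside the window shown. H1f2 has AAACACA together with CCAAT, and H4c12 has the TATA letters alone. A match is a run of letters and does not show that a factor binds.

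All levels here are the authors' log2 RMA intensities, in which 1 unit is a doubling, and levels of different probe sets cannot be set against each other. The array medians lay between 3.52 and 3.61. Of the 25 probe sets, 7 were at or above the median of every array (H1f2, H1f10, H2ac10, H2bc3, H4c1, H4c9 and H4c12) and 13 were below it on all 7 arrays. Whether values below the median lie above background was not measured. Genes of sperm and spermatids (11 measured, among them Prm1, Tnp2, Odf1 and Smcp) averaged 9.79 on the C57BL/6 array and 8.49 to 8.67 in the line. The list was not uniform, with 9 genes lower and 2 higher in the line. Tnp1 read 12.4 in C57BL/6 and 9.23 to 9.85 in the line. Odf1 read 11.55 and 11.12 to 11.86, and Smcp 11.88 and 11.56 to 12.11. Mitochondrially encoded genes averaged 8.80 on TG3 replicate 1 and 8.91 on nonTG3 replicate 3, against 9.98 to 11.55 on the other 5 arrays. On the same pair of arrays the markers of fibroblasts, muscle and vessels had means of 5.61 and 5.33, against 4.51 to 4.87 on the other 5. Results are therefore also given without both arrays.

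**Figure D1:**
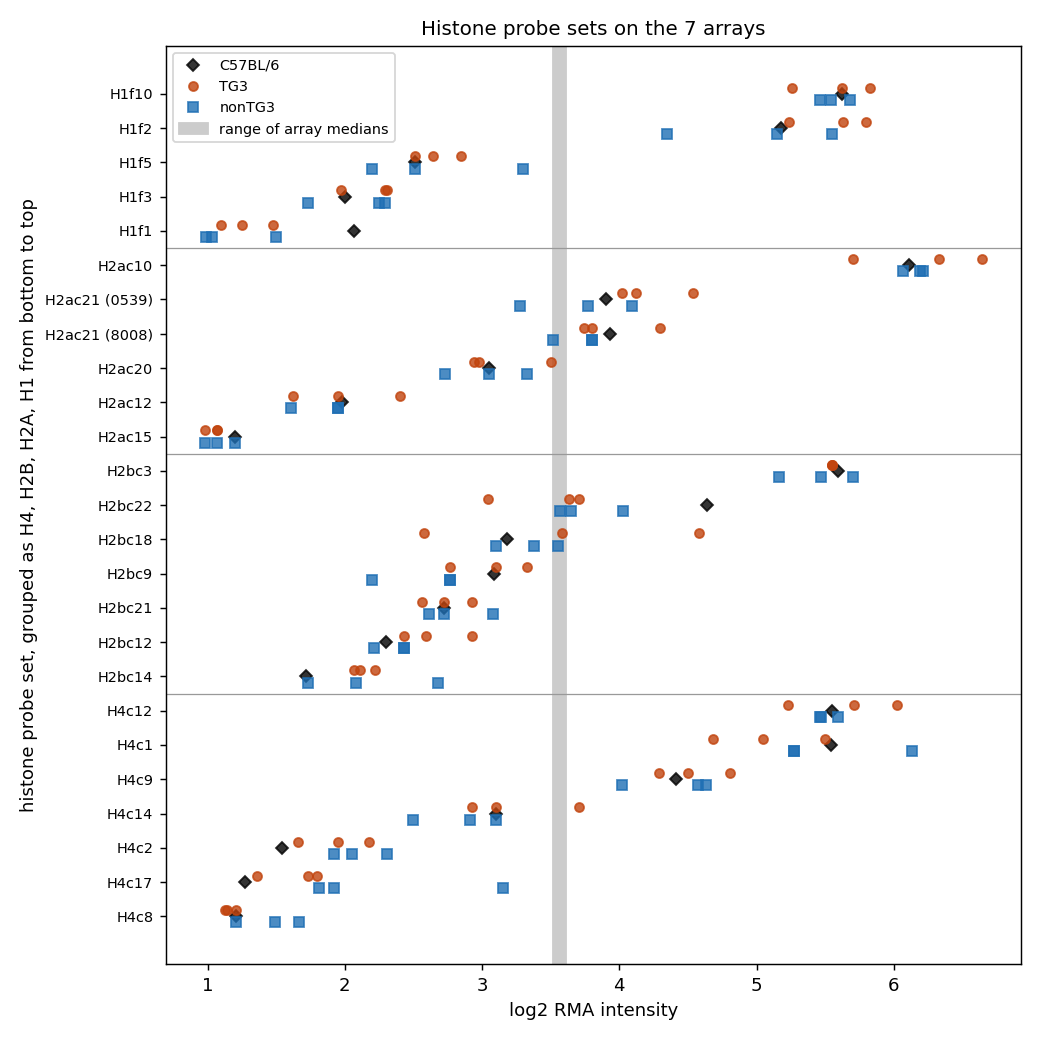
Log2 RMA intensity (x axis) of each of the 25 histone probe sets (rows, grouped by family, with the last 4 digits of the probe set for H2ac21) on the C57BL/6 array (diamonds), the 3 TG3 arrays (circles) and the 3 nonTG3 arrays (squares). The grey band spans the array medians, 3.52 to 3.61, and 13 probe sets lie left of it on all 7 arrays, while H2bc22 and H1f1 are the rows whose diamond lies to the right of all 6 other points.

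No histone gene passed the test between the transgenic line and C57BL/6, and their differences lay on both sides of 0. The line here is the mean of TG3 and nonTG3. limma, fitted to all 23493 probe sets with Benjamini-Hochberg adjustment, called 0 of the 25 histone probe sets at an adjusted p under 0.05, and 3.02% of all probe sets (710) were called, 2.85% lower in the line and 0.17% higher. At an unadjusted p under 0.05 there were 2 histone probe sets, H1f1 and H2bc22, both lower in the line, against 12.2% of all and 7.96% of all in that direction. The median difference of the 25 was 0.053 log2 units, with 15 higher and 10 lower, and that of all tested probe sets was 0.037. This median fell to -0.003 without TG3 replicate 3, -0.016 without nonTG3 replicate 1 and 0.008 with TG3 replicate 1 and nonTG3 replicate 3 both left out, so its sign is not settled. The smallest adjusted p was 0.192. Against the same C57BL/6 array, TG3 alone and nonTG3 alone also gave 0 of 25 calls, with 2.53% of all probe sets called in each (595 and 594). At an unadjusted p under 0.05 each gave 2 of 25, against 11.9% of all for TG3 and 11.7% for nonTG3. The spread behind these p-values comes from the line's arrays alone. In pooled sperm, fewer cells with an RNA and less of it per cell cannot be told apart.

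Among the linker histones, H1f2 encodes H1.2, a widely expressed H1. It read 5.18 on the C57BL/6 array, 5.80, 5.63 and 5.24 in TG3 (replicates 1, 2 and 3) and 5.55, 4.35 and 5.15 in nonTG3 (in the same order, as for every gene that follows). The C57BL/6 value lay inside the range of the line and nonTG3 replicate 2 was the lowest. The line differed from C57BL/6 by 0.11 log2 units (95% interval -0.99 to 1.22, limma adjusted p = 1). H1f10 read 5.62 in C57BL/6, 5.83, 5.62 and 5.26 in TG3 and 5.46, 5.54 and 5.68 in nonTG3, so all 3 groups overlapped. Its difference was -0.05 (95% interval -0.59 to 0.49).

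H1f1, which encodes H1.1, a linker histone known from thymus, spleen and testis, had the smallest p of the 25 probe sets. It is named after its values were seen. It read 2.07 on the C57BL/6 array and 1.48, 1.10 and 1.25 in TG3 and 1.03, 1.5 and 0.99 in nonTG3. All 6 arrays of the line lay below C57BL/6, but every value was far below the array medians, so no fold is given. The difference of the readings was -0.84 log2 units (95% interval -1.43 to -0.25) at an unadjusted p of 0.0134 and a limma adjusted p of 0.192. H1f3 and H1f5, also linker histones, read at most 3.30 on any array, and their differences were 0.14 and 0.16.

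Among the H2A genes, H2ac10 read 6.11 in C57BL/6, 6.64, 5.70 and 6.33 in TG3 and 6.07, 6.21 and 6.19 in nonTG3. TG3 held both the highest and the lowest array, and the other groups lay between them. The line differed from C57BL/6 by 0.08 (95% interval -0.72 to 0.88, limma adjusted p = 1). H2ac21, an H2A gene on chromosome 3, had 2 probe sets. The first read 3.90 in C57BL/6, 4.12, 4.02 and 4.54 in TG3 and 3.28, 3.77 and 4.09 in nonTG3. The second read 3.93 in C57BL/6, 3.80, 4.30 and 3.74 in TG3 and 3.80, 3.52 and 3.80 in nonTG3. Both placed C57BL/6 within the range of the line, with differences of 0.08 and -0.10. H2ac12, H2ac15 and H2ac20 stayed at or below 3.50 on all 7 arrays, with differences of -0.07, -0.14 and 0.04.

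H2bc22 showed the widest difference of the 25. It read 4.64 on the C57BL/6 array, 3.63, 3.04 and 3.71 in TG3 and 3.57, 3.65 and 4.03 in nonTG3. Every array of the line lay below C57BL/6. The difference was -1.04 log2 units (95% interval -1.77 to -0.31) at an unadjusted p of 0.0137 and a limma adjusted p of 0.196, so it did not pass the test. Over all alternatives, left-out arrays included, it ran from -1.15 to -0.93. Taken separately, TG3 differed from C57BL/6 by -1.18 (limma adjusted p = 0.18) and nonTG3 by -0.89 (limma adjusted p = 0.342), and these share the C57BL/6 array. H2bc3, shown beside it for its promoter, read 5.59 in C57BL/6, an equal 5.55 on all 3 TG3 arrays, and 5.16, 5.70 and 5.47 in nonTG3. The equal values give TG3 an SD of 0 here, which may understate its spread. Its difference was -0.10 (95% interval -0.58 to 0.39, limma adjusted p = 1).

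Of the other H2B genes, H2bc14 read 1.72 in C57BL/6, 2.07, 2.11 and 2.22 in TG3 and 1.73, 2.68 and 2.08 in nonTG3, with a difference of 0.43 (limma adjusted p = 0.837). All 6 arrays of the line exceeded C57BL/6, nonTG3 replicate 1 only barely, and every value was below the array medians. H2bc18 varied most within a group: it read 3.18 in C57BL/6, 4.58, 3.58 and 2.58 in TG3 and 3.55, 3.1 and 3.38 in nonTG3. The TG3 arrays alone span more than the whole difference of 0.28 (95% interval -1.38 to 1.94). H2bc21, known in the mouse as a replacement H2B of olfactory neurons, read 2.56 to 3.08 in the line and 2.72 in C57BL/6. H2bc9 and H2bc12 differed by -0.27 and 0.20. Like H2bc14, both also lie on shared probe sets of 12 symbols, given below, that read lower in the line.

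H4 is encoded by many genes with nearly the same product. H4c12 read 5.55 in C57BL/6, 5.71, 5.23 and 6.02 in TG3 and 5.47, 5.46 and 5.59 in nonTG3. H4c1 read 5.54 in C57BL/6, 5.50, 5.05 and 4.68 in TG3 and 5.27, 5.27 and 6.13 in nonTG3. In both cases C57BL/6 lay inside the line's range, with differences of 0.03 (95% interval -0.65 to 0.72) and -0.23 (95% interval -1.28 to 0.82). H4c9 read 4.41 in C57BL/6 and 4.02 to 4.81 in the line, a difference of 0.07. H4c17 read 1.27 in C57BL/6, 1.36, 1.80 and 1.73 in TG3 and 1.92, 1.81 and 3.15 in nonTG3. H4c2 read 1.54 in C57BL/6, 1.95, 1.66 and 2.18 in TG3 and 2.05, 1.92 and 2.31 in nonTG3. For both genes every array of the line lay above C57BL/6, at values below the array medians, and neither passed the test (limma adjusted p = 0.827 for H4c17 and 0.533 for H4c2). H4c8 and H4c14 differed by 0.10 and -0.06.

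In all, the C57BL/6 value lay outside the line's range for 5 of the 25 probe sets, above it for H1f1 and H2bc22 and below it for H2bc14, H4c2 and H4c17. Across all tested probe sets 32.4% did so. The 7 probe sets above the array medians had differences of -0.23 to 0.11, none with an interval that left out 0. For 5 of these 7 the whole interval lay within 1 log2 unit of 0, so a doubling or halving falls outside it. H1f2 and H4c1 had wider intervals. Over all 25, the intervals of 16 lay within 1 log2 unit, and the interval reached a median of 0.72 to either side, against 0.52 for all tested probe sets. The within-group SD had a median of 0.31 for the histone probe sets and 0.21 for all.

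**Figure D2:**
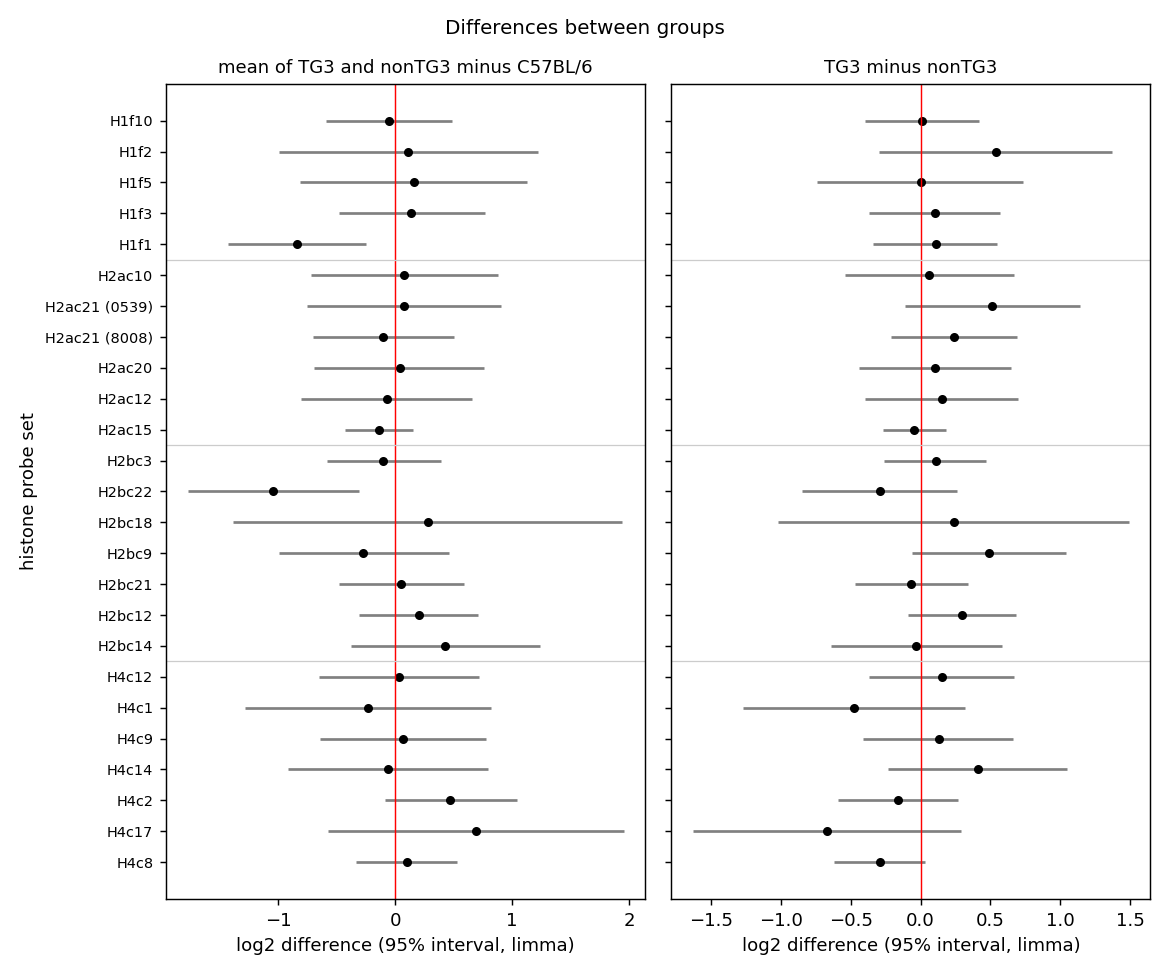
Log2 difference (points) and 95% interval (bars) from limma for the 25 histone probe sets, for the line minus C57BL/6 (left) and TG3 minus nonTG3 (right). On the left the bars of H1f1 and H2bc22 lie below 0 and all others cross it, and on the right all 25 cross 0.

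No histone gene passed the test between carriers of the transgene and their littermates either. limma called 0 of 25 between TG3 and nonTG3, and 0.0% of all probe sets. At an unadjusted p under 0.05 there were 0 of the 25, against 2.38% of all (559). The median difference was 0.104 log2 units, with 16 higher and 9 lower in TG3, and 0.005 over all tested probe sets. It rested on single arrays: it was 0.020 without TG3 replicate 1, 0.009 without TG3 replicate 3 and -0.023 when the arrays low in mitochondrial RNA were both left out. TG3 and nonTG3 failed to overlap at 1 of the 25 probe sets, H4c17, where 4.12% of all did so. The 95% intervals of 18 of the 25 lay within 1 log2 unit of 0, as did those of 5 of the 7 probe sets above the array medians.

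Of the histone genes that averaged higher in TG3, the smallest p-values were those of H2bc9, the first H2ac21 probe set and H2bc12. H2bc9 read 2.77, 3.1 and 3.33 in TG3 and 2.77, 2.20 and 2.77 in nonTG3, with 3.09 in C57BL/6. The groups touched at 2.77, and the difference was 0.49 (95% interval -0.06 to 1.04, limma adjusted p = 0.923). H2ac21 differed by 0.51 on its first probe set (95% interval -0.11 to 1.14) and by 0.24 on its second (95% interval -0.21 to 0.69). H2bc12 read 2.93, 2.59 and 2.43 in TG3 and 2.43, 2.43 and 2.21 in nonTG3, with 2.30 in C57BL/6, a difference of 0.30. This was 0.16 without TG3 replicate 1 and 0.08 with the arrays low in mitochondrial RNA both left out. The H2bc9 difference was 0.30 without nonTG3 replicate 2, and that of the first H2ac21 probe set 0.30 without nonTG3 replicate 1. H1f2 had a difference of 0.54 (95% interval -0.30 to 1.37), which was 0.20 without nonTG3 replicate 2, its lowest array.

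Among those with lower means in TG3 the smallest p-values belonged to H4c8, H4c17 and H4c1, all H4 genes. H4c8 read 1.14, 1.13 and 1.21 in TG3 and 1.49, 1.21 and 1.67 in nonTG3, with 1.21 in C57BL/6. All lie far below the array medians and the groups share the value 1.21, and the difference was -0.29 (95% interval -0.62 to 0.03, limma adjusted p = 0.923). H4c17 had a difference of -0.67 (95% interval -1.63 to 0.29), which was -0.24 without nonTG3 replicate 3, the array that read 3.15, and -0.11 with TG3 replicate 1 left out as well. H4c1 had a difference of -0.48 (95% interval -1.27 to 0.32), which was -0.19 without nonTG3 replicate 3 and -0.28 without TG3 replicate 3. For H4c8 it was -0.19 without nonTG3 replicate 3. The 7 H4 probe sets had a median of -0.163, with 3 higher and 4 lower, while H1, H2A and H2B had medians of 0.101, 0.128 and 0.106. Whether the families differ was not tested.

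Among single arrays, nonTG3 replicate 2 was the lowest of the 7 for 6 of the 25 probe sets, and TG3 replicate 3 was the highest for 7. The 7 probe sets above the array medians averaged 5.65 on TG3 replicate 1 and 5.54 on nonTG3 replicate 3, the arrays of lowest mitochondrial RNA. On the other arrays of the line they averaged 5.22 to 5.41, and on C57BL/6 5.43. The part of mitochondrial, fibroblast or muscle RNA in this was not tested.

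Most histone genes were read by probe sets that several genes share, and these carried the H3 family. There were 38 of them, with 52 symbols of the family, of which 37 had no probe set of their own, including all 12 H3 symbols. Of the 24 genes above, 15 also lie on shared probe sets, all 7 H4 genes among them. Since near-identical genes share these probes, a value cannot be given to 1 gene. Whether the probe sets with 1 symbol also read RNA of near-identical genes could not be checked. In a fit over all 33604 probe sets limma called 0 of the 38 between the line and C57BL/6, where 2.41% of all were called, and 8 had an unadjusted p under 0.05, against 11.1% of all. The differences of these 8 ran from -0.70 to 0.84, with more higher than lower in the line. They count a pair with equal values as 2. Between TG3 and nonTG3 limma called 0 of the 38 and 0.0% of all, with 3 of the 38 at an unadjusted p under 0.05, against 2.51% of all. The median between the line and C57BL/6 was -0.01, with 19 higher and 19 lower. Between TG3 and nonTG3 the median was 0.15, with 29 higher and 9 lower in TG3. Many of these probe sets list the same genes, and this uneven split was not tested. Of the 38, 6 formed 3 pairs with equal values on every array, so 35 were distinct.

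Some shared probe sets are given here, chosen after their values were seen. A pair with equal values for the H2A genes H2ac18, H2ac19 and H2ac20 read 9.21 in C57BL/6, 9.19, 8.72 and 8.77 in TG3 and 8.77, 8.24 and 8.74 in nonTG3. C57BL/6 was the highest, with TG3 replicate 1 close to it, and the difference of -0.47 did not pass (95% interval -1.14 to 0.20, limma adjusted p = 0.708). An H2B probe set of H2bc7, H2bc11, H2bc13 and H2bc15 read 7.34 in C57BL/6 and 6.88 to 7.54 in the line. Other probe sets with the same 4 symbols read lower and differed in direction. One read 1.34 in C57BL/6 and 1.39 to 2.08 in the line. Another read 2.44 in C57BL/6, 2.78 to 3.53 in TG3 and 1.90 to 2.56 in nonTG3. A further H2B probe set had 12 symbols that include these 4 as well as H2bc9, H2bc12 and H2bc14. It read 7.33 in C57BL/6, 7.02, 6.58 and 6.55 in TG3 and 6.65, 6.28 and 6.74 in nonTG3. All 6 arrays of the line lay below C57BL/6 there, at a difference of -0.70 (95% interval -1.31 to -0.08, limma adjusted p = 0.362).

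The shared probe set nearest to a call also had 12 symbols, listed for H2B, with H2bc9, H2bc12 and H2bc14 among them. It was 1 of the pairs with equal values, and read 5.01 in C57BL/6, 4.33, 4.39 and 4.39 in TG3 and 4.39, 4.22 and 4.39 in nonTG3. Its difference was -0.66 (95% interval -0.95 to -0.38, limma adjusted p = 0.0539). Equal values on 4 of the line's arrays narrow that interval. For H3, a probe set of H3c1, H3c8, H3c10 and H3c11 read 5.59 in C57BL/6, 6.05, 5.01 and 4.09 in TG3 and 4.91, 4.56 and 4.83 in nonTG3. The TG3 arrays spread over more than the difference of -0.68 (limma adjusted p = 0.979). Other probe sets with the same H3 symbols read at most 1.9 on any array. An H3 probe set with 8 symbols, among them H3c13, H3c14 and H3c15, read 5.79 in C57BL/6 and 5.60 to 6.12 in the line. The difference was 0.05 (95% interval -0.34 to 0.45). Other probe sets with these 8 symbols read at most 3.9 on any array, and their differences ran from -0.18 to 0.84. The one at 0.84 read 2.55 in C57BL/6 and 2.82 to 3.80 in the line (95% interval 0.05 to 1.64, limma adjusted p = 0.406). Another, at 0.37, read 2.88 and 3.07 to 3.39 (limma adjusted p = 0.397).

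Of 16 measured genes whose products make and process histone mRNA, 1 fell in the line and 0 rose, with a median difference of 0.078, where 2.85% of all probe sets fell and 0.17% rose. Ncbp1, of the cap-binding complex, fell from 6.83 to 5.43 ± 0.16 (SD, n = 6; limma adjusted p = 0.0168). Slbp, the stem-loop binding protein, stood at 5.11 in C57BL/6 against 4.01 ± 0.19 for the line (SD, n = 6), a difference of -1.10 that missed the threshold (limma adjusted p = 0.0671). Npat, which activates histone transcription at the start of S phase, read 3.27 and 3.26 ± 0.13 (SD, n = 6), and Casp8ap2, of the histone locus body, 3.13 and 3.18 ± 0.15 (SD, n = 6). Ncbp1 lost its call in 4 of the 6 fits without 1 array of the line (highest adjusted p 0.0604, with TG3 replicate 2 left out), and Slbp gained one in 1 of them (adjusted p = 0.0392).

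Of 14 histone chaperone and assembly genes 1 fell, Nasp, which carries H1 and H3-H4 and has a testis form. It fell from 6.62 to 4.83 ± 0.19 (SD, n = 6; limma adjusted p = 0.0128), and the list's median was -0.217. Of 7 replacement histones, H1f10 among them, 1 fell, H2ax, whose product is phosphorylated at DNA breaks and on the sex chromosomes in meiosis. H2ax fell from 6.38 to 5.08 ± 0.22 (SD, n = 6; limma adjusted p = 0.0122), and H2az1, an H2A variant found at gene starts, read 5.84 against 4.64 ± 0.41 (SD, n = 6; limma adjusted p = 0.255). Nasp lost its call without nonTG3 replicate 2 (adjusted p = 0.0561), and H2ax was called in all 6 fits without 1 array. With TG3 replicate 1 and nonTG3 replicate 3 both left out, H2ax (adjusted p = 0.126), Nasp (0.113) and Ncbp1 (0.0655) all lost their calls. Of 24 genes of DNA replication and proliferation 3 fell, Top2a, Bub1 and Birc5, and the median was -0.025. These counts of 1 of 14, 1 of 7 and 3 of 24 stand beside 2.85% of all probe sets called lower. Between TG3 and nonTG3 none of these lists held a called gene, and at an unadjusted p under 0.05 the counts were 0, 0, 1 and 1, against 0.0% of all probe sets called and 2.38% at an unadjusted p under 0.05.

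The testis histone variants gave other values than the replication-dependent genes. Of 8 measured, 6 fell in the line, where 2.85% of all probe sets did, and the median difference was -2.0. The 8 include H1f8, a linker histone of oocytes rather than testis. It read 3.64 in C57BL/6 and 3.88 ± 0.04 in the line (SD, n = 6), the 1 difference above 0. H2bc1, the testis H2B, fell from 9.08 to 4.34 ± 0.57 (SD, n = 6; limma adjusted p = 0.0162). H2ac1, the testis H2A beside it, read 8.11 and 4.80 ± 0.67 (SD, n = 6; limma adjusted p = 0.0581). H1f6, the testis linker histone H1t, fell from 6.14 to 3.86 ± 0.34 (SD, n = 6; limma adjusted p = 0.0347), and H2bl1, a spermatid H2B, from 6.97 to 4.45 ± 0.31 (SD, n = 6; limma adjusted p = 0.012). The others that fell were H1f7, H2al2a and H2ap. Of these calls H2bc1, H1f7 and H2ap lost theirs in 3 of the 6 fits without 1 array, H1f6 and H2al2a in 5 and H2bl1 in 1, and 0 of all 23493 probe sets were called when the arrays low in mitochondrial RNA were both left out. Genes of spermatocytes averaged 5.07 in C57BL/6 and 3.62 to 4.14 in the line, with 5 of 13 called lower. Genes of spermatogonia averaged 3.81 and 3.76 to 4.09, with 0 of 15 called, 1 of which had an unadjusted p under 0.05. Leydig cell genes of the testis averaged 4.09 on the C57BL/6 array and 2.53 to 2.74 in the line. Of 6 measured, 4 were called lower, with 5 differences below 0 and 1 above. Sertoli cell genes averaged 4.43 and 3.34 to 3.6. Of 13 measured, 3 were called lower, with 8 differences below 0 and 5 above. The part of other germ cells, Leydig cells or Sertoli cells in the differences of the testis variants and germ cell genes was not tested. The difference between the testis variants and the 25 probe sets was not tested either.

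**Figure D3:**
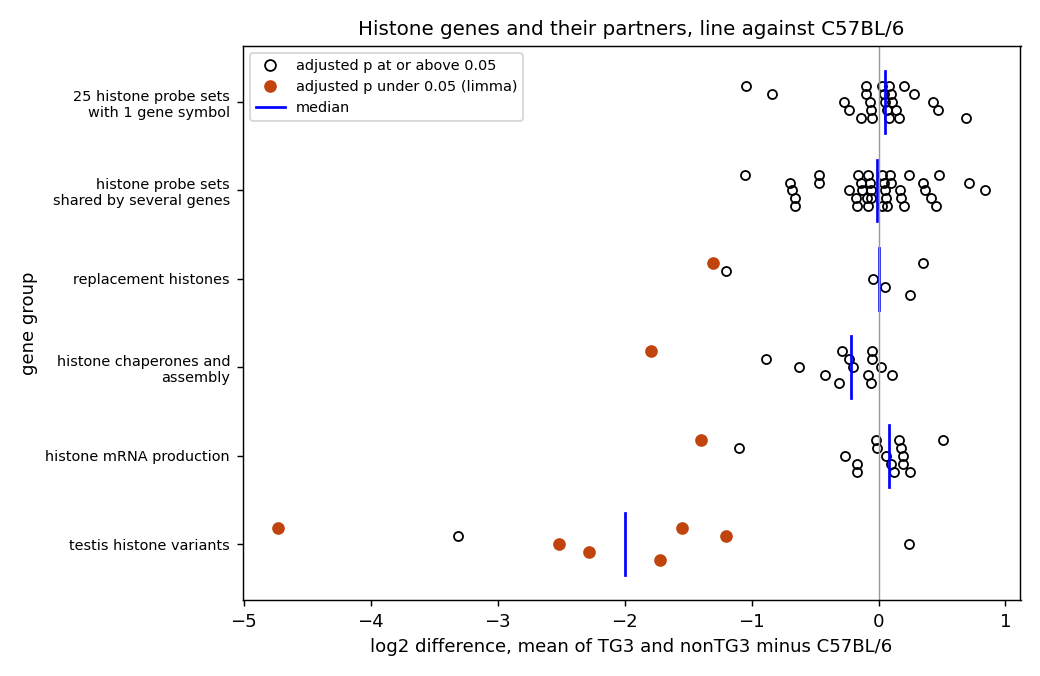
Log2 difference of the line minus C57BL/6 (x axis) for each probe set of 6 groups of genes (rows), with filled points at a limma adjusted p under 0.05 and a vertical bar at each median. The shared probe sets come from the fit over all probe sets. The replacement histones are drawn without H1f10, and the testis histone variants with H1f8, a linker histone of oocytes. The testis histone variants hold 6 filled points where the 25 histone probe sets and the 38 shared ones hold 0.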

How the data were processed

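RNA of mouse sperm was measured on 7 arrays, grouped by their titles. The deposited values are log2 intensities that the authors made with RMA, per the submitters' processing notes, which name R 3.1.0, oligo, RMA and limma. The build and any filter on probe sets: not given in the sources used here. Names came from the platform annotation (23493 probe sets with 1 symbol, 1801 with several, 8310 with none), and all 25 histone probe sets matched the RefSeq table of GRCm38.p6 by Entrez identifier, which changed 0 symbols.

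One limma 3.58.1 model (R 4.3.3) with 1 mean for each group was fitted to the 23493 probe sets on all 7 arrays, with 4 residual and 1.65 prior degrees of freedom, eBayes and Benjamini-Hochberg adjustment. The lone C57BL/6 array is assumed to vary like the others. The steps were tested on simulated data. Precision is limited by the number of arrays, which have no sequencing depth.

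The genes, lists and tests were chosen with earlier results of these data known. Named were the 2 genes of highest mean in each family, the 3 of smallest p in each direction between TG3 and nonTG3, H1f10, and called genes of the lists; others are said to be chosen after their values were seen or are given as values. Alternatives were other normalizations, eBayes settings, array weights, a filter on dim probe sets, all probe sets, other thresholds, left-out arrays, fewer groups and a replicate block. Red blood cell genes had 0 probe sets with 1 symbol. Figures were drawn with matplotlib 3.10.9.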

Additional observations from a re-analysis of the deposited data

How the results depend on the processing

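The count of 0 called histone probe sets held under every alternative run for the 4 contrasts, with adjusted p no lower than 0.114 (TG3 against C57BL/6). Left-out arrays could hardly change it. Between TG3 and nonTG3, 0 of all 23493 probe sets were called in every such fit. The same held for every contrast without both arrays low in mitochondrial RNA. Without 1 array, the contrasts with C57BL/6 called 228 to 496 of all. The median differences stayed within the SD of that median between arrays (0.045) in 9 of 14 alternatives for the line against C57BL/6 and in 11 of 15 for TG3 against nonTG3. Between the line and C57BL/6 the main value of 0.053 became -0.014 with cyclic loess, -0.022 with array weights and 0.008 when the arrays low in mitochondrial RNA were both left out, and ranged from -0.016 to 0.094 without 1 array. Between TG3 and nonTG3 the main value of 0.104 became 0.017 with array weights and -0.023 without both arrays, and ranged from 0.009 to 0.128 without 1 array. The cause was not tested. With the replicate number as a block the median stayed at 0.104 and 0 histone probe sets were called, with 1 at an unadjusted p under 0.05 and a smallest adjusted p of 0.995. Samples with the same number did not deviate together: the correlations of their deviations were -0.449, 0.016 and -0.403. The highest, 0.552, joined TG3 replicate 1 and nonTG3 replicate 3, the arrays low in mitochondrial RNA. Deviations within a group sum to 0, so these correlations cannot show whether samples with the same number were handled together. Signal near or below the array medians limits what 18 of the 25 probe sets can show.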

Other observations

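A few shared histone probe sets, chosen after their values were seen, had uneven readings between the groups of the line. An H4 probe set with 13 symbols read 2.48, 3.17 and 2.66 in TG3 and 2.0, 2.02 and 1.94 in nonTG3, with 1.67 in C57BL/6. All of these values lie below the array medians. The groups did not overlap, and the unadjusted p of 0.00665 became a limma adjusted p of 0.917 over all probe sets. Another H4 probe set with the same 13 symbols read 4.25, 2.09 and 3.20 in TG3 and 3.20, 2.25 and 3.80 in nonTG3, with groups that overlapped. The remaining probe sets with these symbols differed between TG3 and nonTG3 by -0.01 and -0.14. An H2B probe set of H2bc4, H2bc6 and H2bc8 read 6.75, 6.47 and 6.55 in TG3, while nonTG3 read 6.91 on replicate 1 and 4.12 and 4.64 on replicates 2 and 3, with 5.98 in C57BL/6. Its difference between TG3 and nonTG3 was 1.37 log2 units with a 95% interval of -0.44 to 3.18. The other probe set with these same symbols went the other way. It read 2.26, 3.36 and 3.17 in TG3 and 4.15, 3.77 and 1.89 in nonTG3. The difference there was -0.34 (95% interval -1.97 to 1.29).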
